A study of Mus musculus with 5 samples.

Results

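Expression of 9 genes of cholesterol synthesis was compared between tumoricidal and control macrophages: the enzymes Hmgcs1, Idi1, Fdps, Fdft1, Sqle, Lss, Cyp51 and Dhcr7, and the regulator Insig1. They were taken by gene symbol from the array annotation, and all 9 were found, on 22 of 45037 probe sets (9 of 18193 named genes). None of the 22 carried a further gene symbol. All mice were Idiotype-specific TCR-transgenic SCID mice on the Balb/c background, aged 7 to 12 weeks. SCID mice make almost no B or T cells with receptors of their own. The transgenic T-cell receptor recognises a piece of the MOPC315 myeloma antibody. Tumoricidal macrophages came from Matrigel plugs under the skin that held MOPC315 cells (3 arrays), and control macrophages from plugs with antigen-loss MOPC315, a variant of the line without the T cells' target (2 arrays). On day 8 CD11b+ cells were sorted from the plugs, and this gate also admits neutrophils and natural killer cells. The labels call the arrays biological replicates and do not say how many mice each holds.

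Cells make cholesterol from acetyl-CoA by a chain of enzymes in the cytosol and the endoplasmic reticulum: the mevalonate steps build isoprene units, those units are joined into squalene, and squalene is oxidised, closed into lanosterol and trimmed to cholesterol. When sterols in the endoplasmic reticulum run low, SCAP carries the transcription factor SREBP2 to the Golgi, where it is cut free and raises the genes of the whole chain. When sterols are plentiful, INSIG proteins hold SCAP back, and macrophages exposed to interferon are known to make oxysterols that act through this brake.

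The promoters were read to show what the genes share outside the array. RefSeq promoters of build GRCm38.p6 matched 6 of the 9 members (Hmgcs1, Idi1, Lss, Cyp51, Dhcr7 and Insig1) with 8 transcription starts. The 250 bases before the start are printed 5′ to 3′ for 5 members, chosen because they span the range of behaviours below: Hmgcs1 and Insig1 with differences near 0, Idi1 and Cyp51 with lower means, and Lss, whose probe sets disagreed. Capitals mark matches, on either strand, to the sterol element TCACNCCAC or its looser form CACNCCAC, which SREBP binds in known target genes, and to CCAAT, the box of its partner NF-Y. The windows are chr13:119690101-119690350 (plus strand), chr5:28071162-28071411 (plus strand), chr13:8885356-8885605 (plus strand), chr5:4104698-4104947 (minus strand) and chr10:76531355-76531604 (plus strand).
Hmgcs1: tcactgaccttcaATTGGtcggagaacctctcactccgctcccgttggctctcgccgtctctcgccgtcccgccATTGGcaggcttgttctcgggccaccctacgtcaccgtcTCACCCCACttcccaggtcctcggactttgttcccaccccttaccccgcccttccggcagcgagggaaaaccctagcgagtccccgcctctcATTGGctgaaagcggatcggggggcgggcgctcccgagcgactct
Insig1: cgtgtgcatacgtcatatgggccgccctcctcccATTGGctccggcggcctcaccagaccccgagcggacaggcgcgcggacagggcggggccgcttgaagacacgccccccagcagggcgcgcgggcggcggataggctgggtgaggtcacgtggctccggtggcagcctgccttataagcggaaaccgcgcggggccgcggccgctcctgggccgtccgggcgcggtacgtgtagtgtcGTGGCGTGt
Idi1: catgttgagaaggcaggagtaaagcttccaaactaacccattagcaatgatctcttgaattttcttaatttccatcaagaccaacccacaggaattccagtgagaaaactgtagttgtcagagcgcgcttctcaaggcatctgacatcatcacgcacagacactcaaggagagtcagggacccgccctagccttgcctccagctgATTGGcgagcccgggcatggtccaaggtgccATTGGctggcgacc
Cyp51: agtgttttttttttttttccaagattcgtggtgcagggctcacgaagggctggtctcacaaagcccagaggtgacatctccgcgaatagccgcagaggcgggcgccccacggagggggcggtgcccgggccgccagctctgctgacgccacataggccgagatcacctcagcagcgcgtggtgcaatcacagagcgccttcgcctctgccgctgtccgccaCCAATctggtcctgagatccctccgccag
Lss: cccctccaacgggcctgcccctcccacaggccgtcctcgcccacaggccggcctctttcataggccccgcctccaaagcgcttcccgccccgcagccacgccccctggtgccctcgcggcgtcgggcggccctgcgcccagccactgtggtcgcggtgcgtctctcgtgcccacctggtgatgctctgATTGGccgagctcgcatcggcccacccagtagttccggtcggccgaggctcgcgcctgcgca

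Hmgcs1 held the only match to the full sterol element among the 8 windows, starting 137 bases before the start, against 1.05% of 32851 promoters of the same length. The looser form, which contains the full one and overlaps it in Hmgcs1, occurred in 2 of the 8, in Hmgcs1 and, on the minus strand, in Insig1 starting 9 bases before the start (5.29% of all promoters). A CCAAT match was present in at least 1 window of all 6 genes and in 6 of 8 windows (33.8% of all promoters). The Sp1 box GGGCGG lay in 7 of 8 windows (32.7%), and the E-box CACGTG in 2, those of Insig1 and of 1 Dhcr7 start (6.02%). TTCNNNGAA, the motif of interferon-activated STAT factors, was in 0 of 8 (7.02% of all). No matches of different motifs overlapped apart from the nested sterol forms. A match describes letters only.

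Before any member is read, 3 features of the whole set of arrays bear on it. Signals are linear intensities, scaled here so that every array has the same median, and values under the pooled 25th percentile, a signal of 4.79, are raised to that floor. BioC spike-in controls divided the arrays into side A (tumoricidal replicates 1 and 2, control replicate 1; mean log2 signal 9.25 to 9.42) and side B (tumoricidal replicate 3, control replicate 2; 7.38 to 7.45). The labels do not say what the sides are. Since each side holds both groups, differences within each are given beside the pooled ones, and side B has 1 array a group. The gap between 3′ and 5′ Actb probe sets, a measure of RNA integrity, was 0.28 to 0.56 on the log2 scale, highest in control replicate 1. For Gapdh the gap was below 0 on every array, from -0.35 in control replicate 2 to -0.17 in control replicate 1. Marker genes of other cells moved with the groups: summed signals of 13 plasma cell or myeloma markers were 3635 to 4976 in tumoricidal arrays against 5795 and 6469.7 in controls, with no overlap. Jchain, the antibody joining chain, had 78.7 to 561 against 1623 and 1985, and Sdc1, the plasma cell syndecan, 76.9 to 276 against 264 and 295. Of the 13, 10 were lower in tumoricidal arrays. All 8 natural killer markers were higher, with sums of 652 to 1223 against 163 and 208 (Ncr1, an activating receptor, 24.1 to 81.1 against 7.60 and 9.72). For 10 neutrophil markers the sums were 9822 to 11299 against 4380.2 and 7262, and neither these nor the natural killer sums overlapped between groups. Most of the neutrophil sums came from S100a8 (3919 to 4788 against 1635 and 3004) and S100a9 (4803.5 to 5100 against 2098 and 3309). Of the 10 neutrophil markers, 8 had a higher mean in tumoricidal arrays, and 6 were apart on that side (17% of all genes). The other 2, Mpo and Elane, had a lower mean, with overlapping groups. The 10 T-cell markers overlapped (125 to 1454 against 108 and 221), with Cd3e at 196 in tumoricidal replicate 2 and at 8.75 and 9.58 in the other 2. Macrophage markers (12 genes, 33253 to 49691 against 30729.5 and 40558) and cell cycle genes (11 genes, 3013 to 4034 against 2630.2 and 4105) overlapped between the groups, as did fibroblast (9 genes, 1366 to 4216 against 1946 and 3285) and endothelial genes (6 genes, 155 to 190 against 132 and 164). The 5 measured adipocyte genes summed to 203 to 264 against 139 and 193, a separation carried by the lipase Pnpla2 (192 to 248 against 121 and 169), which many cells express. Of the 4 adipocyte genes tested, the other 3 had a lower mean in tumoricidal arrays, and the adipokine Adipoq was near the floor throughout (3.62 to 8.68). The macrophage receptor Csf1r had 5913 to 6808 in tumoricidal arrays against 5186 and 5290, with no overlap. Adgre1, another, had 1334 to 1879 against 793 and 1699, which overlapped. Both were well above the floor on all 5 arrays, and none of the defining markers named here was at 0. Of the 12 macrophage markers, 2 had a lower mean in tumoricidal arrays (37% of all genes) and 10 a higher one. Groups were apart on the high side for 3 of them (17% of all genes). In sorted bulk samples, fewer cells of a type and less RNA per cell cannot be told apart.

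None of the 9 members passed limma's adjusted p under 0.05 in either direction, where 14 (0.0341%) of 41053 probe sets on the array were called higher and 7 (0.0171%) lower. The members leaned to lower signal in tumoricidal macrophages: 7 of 9 had a lower mean and 2 a higher one, against 37% of 17074 genes with a lower mean. The members were chosen with earlier results of these data known, so such shares are no test of the pathway. Its other measured enzymes did not lean low on their brightest probe sets (below). The median log2 difference of the members was -0.25 beside 0.13 for all genes tested. Without control replicate 2 the median was -0.0723, beside 0.25 for all genes, and 5 of 9 had a lower mean. It was -0.14 without tumoricidal replicate 3 and -0.00390 within side A. Sqle, squalene epoxidase, had the largest difference at -1.001 and was the 1 member with an unadjusted p under 0.05, where 2.79% of genes were lower by that rule. Sqle and Cyp51 had groups fully apart on the low side (6.51% of genes) and Lss on the high side (17% of genes). In 4 members (Idi1, Fdft1, Sqle and Cyp51) the mean was lower within both sides of the spike-in split, as in 16.7% of genes. Set against the median of all genes in each, the members' median stood between -0.47 and -0.21 over the 18 settings tried. Several of these settings left the members' own values unchanged.

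**Figure D1:**
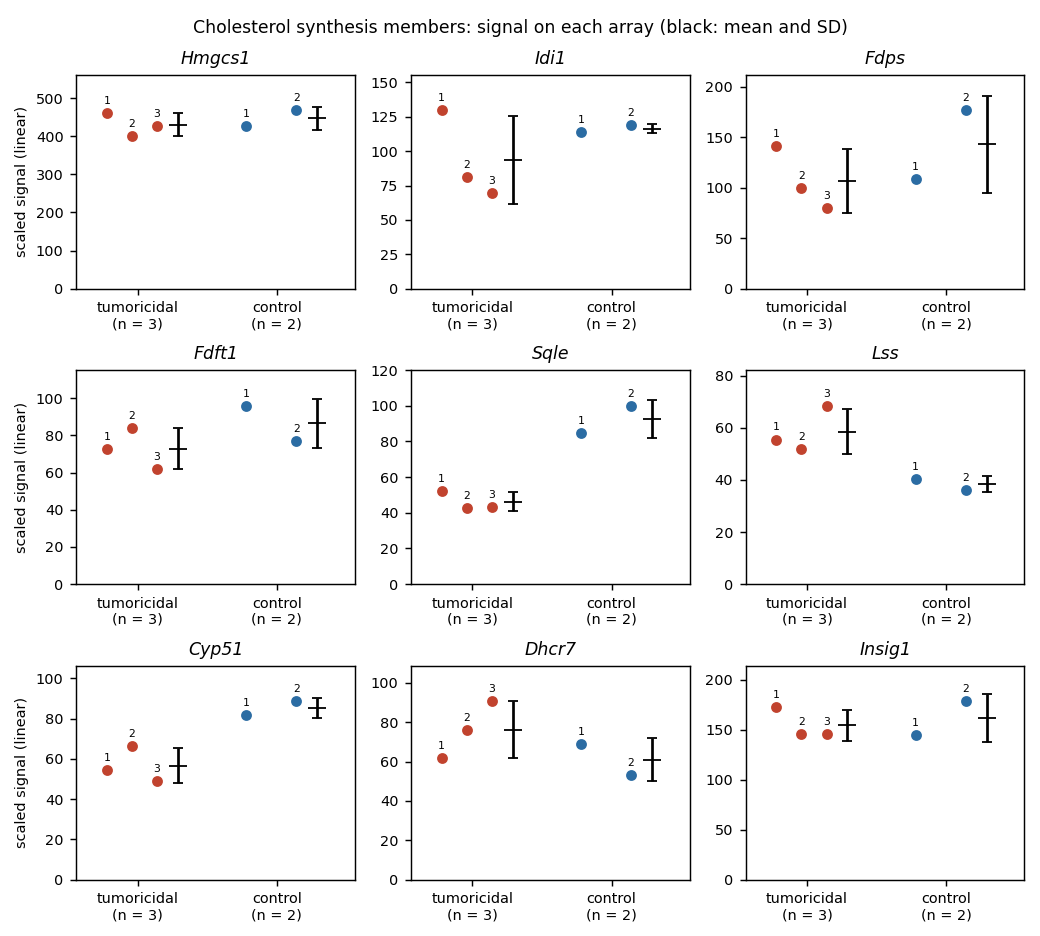
Scaled signal (linear axis from 0) of the 9 members on each array, with replicate numbers over the points, red for tumoricidal and blue for control, and the mean with its SD in black. The 3 tumoricidal Sqle signals of 42.8 to 52.4 sit under both controls, at 84.8 and 100, while Hmgcs1 and Insig1 overlap.

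Hmgcs1 makes HMG-CoA from acetyl-CoA units at the entry to the mevalonate route. Its scaled signals on the tumoricidal arrays, in the order of their replicate numbers, were 461, 401 and 426, and those on the control arrays 426 and 468. The groups overlapped, with a mean of 430 ± 30.1 (SD, n = 3) against 447 ± 30.2 (SD, n = 2). The log2 difference was -0.06 (SE 0.23; 95% interval -0.63 to 0.51; limma adjusted p = 0.955), and it was 0.0111 without control replicate 2. Of its other 4 probe sets, 3 had differences of -0.76, -0.09 and -0.07 and 1 of 0.27. The dimmest of the 5 was the 1 with separate groups, at 12.9, 15.3 and 25.7 in tumoricidal arrays and 29.9 and 28.3 in controls (adjusted p = 0.717).

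Idi1, the isomerase that supplies both forms of the isoprene unit, was represented by 2 probe sets that differed in how clearly the groups separated. On the brighter of them the signals were 130, 81.3 and 69.7 in tumoricidal arrays and 114 and 119 in controls. Tumoricidal replicate 1 lay above both controls there and the other 2 below them. The log2 difference was -0.37 (SE 0.34; interval -1.20 to 0.46; limma adjusted p = 0.844), with -0.15 within side A and -0.77 within side B. It was -0.63 without tumoricidal replicate 1 and -0.18 without tumoricidal replicate 3, and -0.59 with the 2 probe sets averaged. On the dimmer one the signals were 48.0, 80.6 and 60.9 against 102 and 116. All 3 tumoricidal arrays were below both controls on that probe set, at a log2 difference of -0.81 (SE 0.30; unadjusted p = 0.0380 from limma, adjusted p = 0.586), and -0.71 and -0.93 within sides A and B.

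Fdps joins isoprene units into farnesyl diphosphate, from which sterols, ubiquinone and the lipid anchors of small GTPases are made. Its signals were 141, 99.3 and 79.6 in tumoricidal arrays and 109 and 177 in controls. The groups overlapped, and the spread within each was as wide as the difference of -0.42 between them (SE 0.37; interval -1.33 to 0.49; limma adjusted p = 0.835). The sign itself turned between the sides, at 0.12 within side A and -1.15 within side B. The difference was -0.77 without control replicate 1, -0.64 without tumoricidal replicate 1, -0.23 without tumoricidal replicate 3 and -0.0723 without control replicate 2, and -0.22 with its probe sets averaged. A further Fdps probe set was at the floor on 4 of 5 arrays.

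Fdft1, squalene synthase, commits farnesyl diphosphate to sterols. Its brightest probe set gave 72.7, 83.8 and 61.7 in tumoricidal arrays and 96.0 and 77.2 in controls, where tumoricidal replicate 2 exceeded control replicate 2. The log2 difference was -0.25 (SE 0.26; interval -0.91 to 0.40; limma adjusted p = 0.853), and it was -0.24 on the other probe set clear of the floor. It moved to -0.41 without control replicate 2, -0.14 without tumoricidal replicate 3 and -0.0968 without control replicate 1, and was -0.0114 with its probe sets averaged. The remaining 2 Fdft1 probe sets had arrays at the floor in both groups. The identifiers of the brightest Fdft1 and Hmgcs1 probe sets mark sets that may also match other sequences.

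Sqle introduces the oxygen that becomes the hydroxyl group of cholesterol and is a known control point of the route. Its 1 probe set gave 52.4, 42.8 and 43.5 on the tumoricidal arrays and 84.8 and 100 on the control arrays. Every tumoricidal array was below both controls, by more than the spread within either group, at 46.2 ± 5.33 (SD, n = 3) against 92.4 ± 10.7 (SD, n = 2). This is a tumoricidal-to-control ratio of 0.500, with a log2 difference of -1.001 (SE 0.25; interval -1.61 to -0.39), at an unadjusted p of 0.00723 and an adjusted p of 0.365 from limma over all probe sets. It was -0.84 within side A, -1.20 within side B and -0.995 with the side as a block (adjusted p = 0.366). In all, 2.57% of genes had a difference as low or lower. Over the 5 fits with 1 array left out it stayed between -1.12 and -0.88. Plasma cell markers were also lower in the tumoricidal arrays (above), and their part in the Sqle difference was not tested.

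Lss, which folds the squalene epoxide into lanosterol, gave opposite answers on different probe sets. The brightest had no transcript accession listed and was of the kind whose identifier marks a set that may match several transcripts. Its signals were 55.5, 51.8 and 68.5 in tumoricidal arrays and 40.5 and 36.1 in controls. All tumoricidal arrays were above both controls, at 0.61 on the log2 scale (SE 0.25; interval -0.02 to 1.23; limma adjusted p = 0.649). On a dim one (transcript accession also not listed) the signals were 3.66, 5.20 and 4.33 against 12.7 and 10.4. The groups were thus apart in the other direction, with 2 tumoricidal arrays at the floor. The fitted difference there was -1.23 (SE 0.24; interval -1.81 to -0.64; unadjusted p = 0.00240, adjusted p = 0.248, limma), computed with those 2 arrays set to the floor. On the other dim one, of accession AK014742, they were 1.02, 9.43 and 5.14 against 9.96 and 10.6, again lower, with 1 array at the floor and a difference of -0.74. With the 3 probe sets averaged, the Lss difference was -0.45. The direction for Lss thus depended on the probe set.

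**Figure D2:**
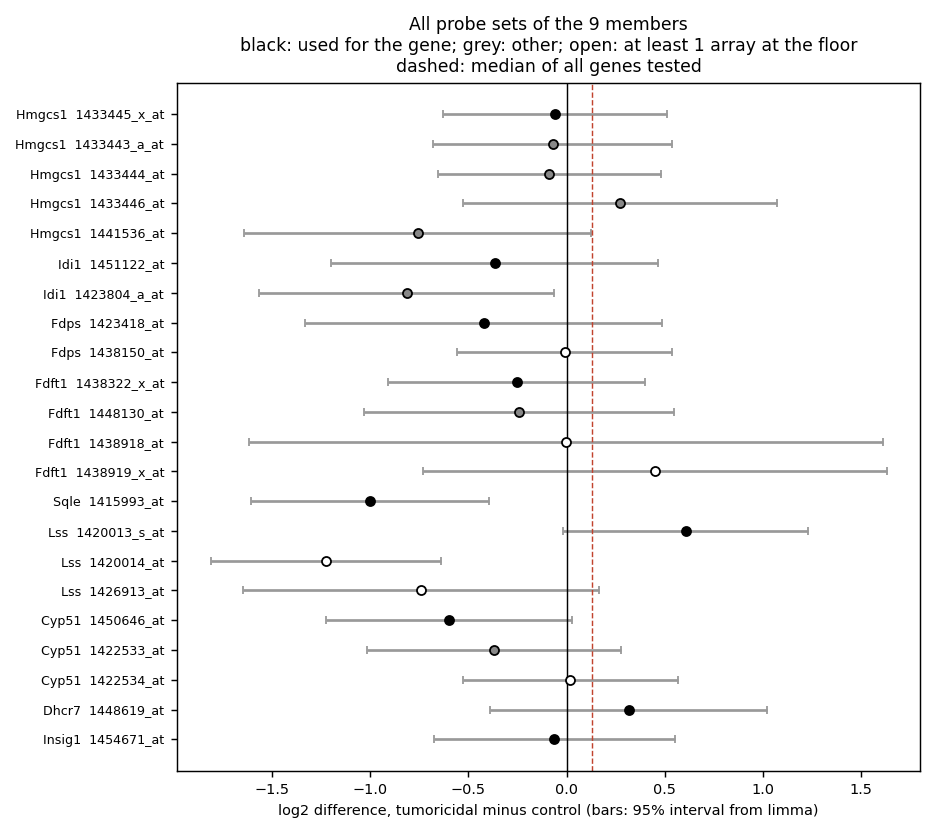
Log2 difference, tumoricidal minus control, of all 22 probe sets with limma's 95% intervals; black points were used for the gene, grey ones were not, and open ones had an array at the floor. Points lie left of 0 for 17 probe sets and right of it for 5, and the 3 Lss points fall on both sides.

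Cyp51, lanosterol demethylase, carries out the step after Lss. Its brightest probe set gave 54.6, 66.4 and 49.1 in tumoricidal arrays and 81.7 and 88.6 in controls. The groups did not overlap, at 56.7 ± 8.85 (SD, n = 3) against 85.2 ± 4.87 (SD, n = 2). The log2 difference was -0.60 (SE 0.25; interval -1.22 to 0.03; limma adjusted p = 0.656), and it was -0.44 within side A and -0.85 within side B. On the next brightest the order was the same, with 22.4, 31.0 and 27.2 against 36.9 and 32.1 and a difference of -0.37. The last Cyp51 probe set was at the floor on 4 arrays.

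Dhcr7, the reductase of the last step to cholesterol, stood on the other side of 0. Its signals were 61.7, 75.9 and 90.6 in tumoricidal arrays and 68.7 and 53.1 in controls, with tumoricidal replicate 1 between the controls. The log2 difference was 0.32 (SE 0.28; interval -0.39 to 1.02; limma adjusted p = 0.841), made up of -0.00390 within side A and 0.77 within side B. It was 0.50 without control replicate 1, 0.18 without tumoricidal replicate 3 and 0.13 without control replicate 2.

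Insig1, the sterol-sensing brake that is itself raised by SREBP, gave 172, 145 and 146 in tumoricidal arrays and 145 and 178 in controls. The groups overlapped over their whole range, with a log2 difference of -0.06 (SE 0.25; interval -0.67 to 0.55; limma adjusted p = 0.955), 0.13 within side A and -0.29 within side B. It was 0.0889 without control replicate 2.

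Counted over probe sets rather than genes, 17 of the 22 had a lower mean in tumoricidal macrophages (77.3%), where 41.6% of all tested probe sets did. Groups were apart on the low side in 7 (31.8%), against 7.6% of all, and on the high side in 1, against 13.3%. The 7 came from 5 genes: Hmgcs1, Idi1, Sqle, Lss with 2 and Cyp51 with 2. An unadjusted p under 0.05 was reached on the low side by 3, of Idi1, Sqle and Lss (3.07% of all probe sets), and on the high side by 0 (4.92%). Probe sets of a gene share its RNA and 6 of the 22 had arrays at the floor, so these counts are not independent. They also cover members chosen with earlier results of these data known. Of the 16 clear of the floor, 13 had a lower mean. The median log2 signal over the 9 genes was 6.18, 6.35 and 6.12 on the tumoricidal arrays and 6.58 and 6.64 on the controls, which did not overlap. Their summed signals did overlap, at 1201, 1048 and 1034 against 1165 and 1297.

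**Figure D3:**
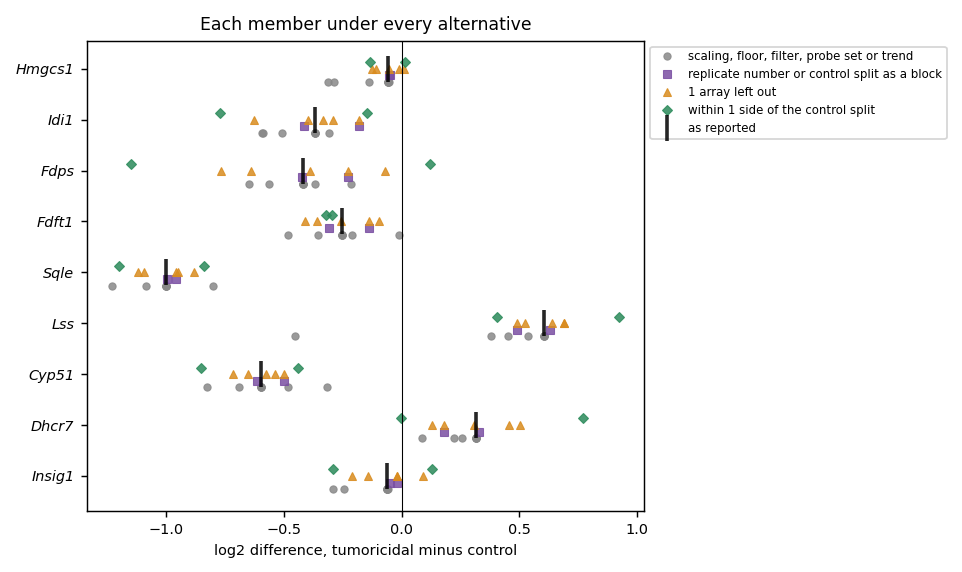
Log2 difference of each member as reported (black bar) and under each alternative, by kind of alternative. Sqle and Cyp51 stay left of 0 throughout, as do Idi1 and Fdft1, while Hmgcs1, Fdps, Insig1, Dhcr7 and Lss each have a point on the other side.

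The rest of the sterol genes were taken from 6 lists with 60 measured genes of 69 listed, and those not measured are not analysed here. None of the 60 passed limma's adjusted p under 0.05, while 2 were higher (Ch25h and Scap) and 1 lower (Elovl6) by an unadjusted p under 0.05, where 6.12% and 2.79% of genes were. On their brightest probe sets, the other enzymes of the same chain did not lean low. Their median log2 difference was 0.58 within side A and 0.06 within side B, beside 0.20 and 0.07 for all genes. Their median log2 signal overlapped between the groups, at 6.75, 6.30 and 6.66 on the tumoricidal arrays against 6.16 and 6.87 on the controls. Of 10 measured, 2 had a lower and 8 a higher mean, with a pooled median log2 difference of 0.26. Groups were apart on the high side for 3 (17% of all genes) and on the low side for 0 (6.51%). These counts take the brightest probe set of each gene, and some dimmer ones went the other way. A dimmer Sc5d set, with tumoricidal arrays at the floor, was apart on the low side at -1.67 (unadjusted p = 0.00466, limma). So were dimmer Hsd17b7 sets, at -0.31 and -0.91. A dimmer Mvd set was apart on the high side, at 0.54. Tm7sf2, a sterol reductase, had 94.9, 53.7 and 64.4 in tumoricidal arrays and 22.0 and 55.5 in controls, which differed by 0.98 on the log2 scale (SE 0.48; adjusted p = 0.738 from limma). Control replicate 1 was the low array, and the difference was 1.70 within side A and 0.21 within side B. Mvd, the decarboxylase that makes the isoprene unit, had 108, 60.4 and 99.1 against 39.2 and 60.6, with a difference of 0.83 (SE 0.37; adjusted p = 0.691). Thus neighbours in the chain lay on different sides of 0, Mvd above it and Idi1 below it, and no difference between genes was tested.

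**Figure D4:**
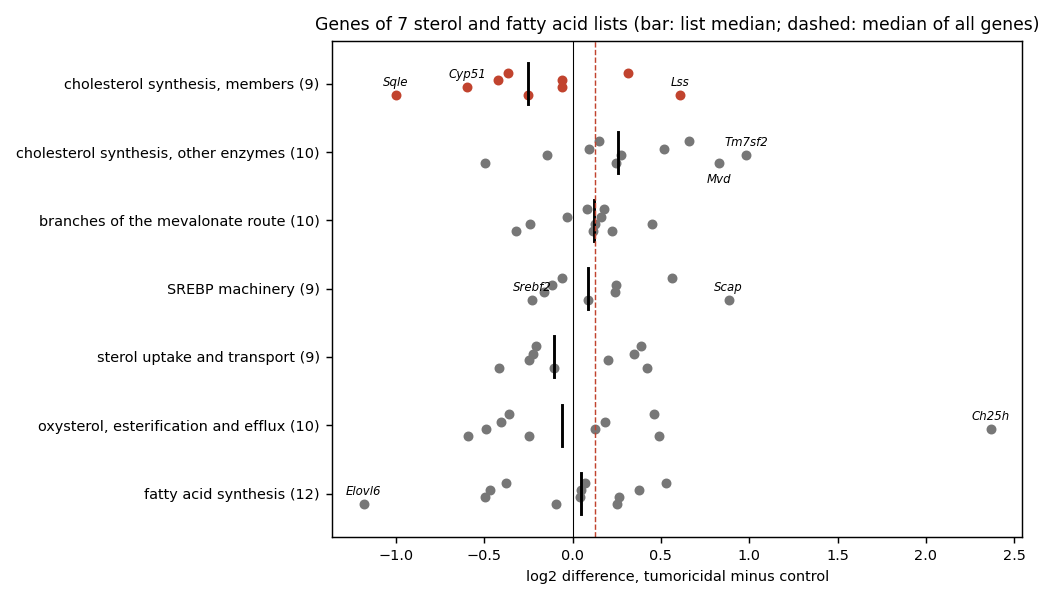
Log2 difference, tumoricidal minus control, of the genes of 7 lists (number measured in brackets), with a black bar at the list median and a dashed line at the median of all genes, 0.13. The 9 members (red) have a median of -0.25, the other enzymes one of 0.26, and Ch25h stands apart at 2.37.

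Among the regulators, the SREBP machinery had 4 of 9 genes with a lower mean and a median difference of 0.09. Srebf2, which encodes SREBP2, had 76.8, 61.0 and 61.9 against 71.2 and 84.4, overlapping groups with a difference of -0.23 (SE 0.25; limma adjusted p = 0.854), or -0.10 without control replicate 2. Scap, its escort, had 96.4, 94.7 and 91.8 against 39.2 and 66.6. All tumoricidal arrays were above both controls, at a difference of 0.88 (SE 0.30; unadjusted p = 0.0282, adjusted p = 0.548, limma), with 1.29 within side A and 0.46 within side B. A dim Scap probe set close to the floor went the other way (1.53, 8.66 and 8.53 against 10.8 and 10.9). Rnf145, a ubiquitin ligase of the endoplasmic reticulum, differed by 0.56 (SE 0.30; adjusted p = 0.758).

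Oxysterol, ester and efflux genes held the largest difference of all 69 genes in the 7 lists. Ch25h, the enzyme that hydroxylates the side chain of cholesterol to give an oxysterol known to hold back SREBP processing, had 916, 881 and 1164 in tumoricidal arrays and 214 and 168 in controls. The groups were far apart relative to their spread, at 987 ± 155 (SD, n = 3) against 191 ± 32.96 (SD, n = 2), a ratio of 5.16. The log2 difference was 2.37 (SE 0.27; interval 1.71 to 3.03; limma unadjusted p = 0.000152, adjusted p = 0.0831), just outside the threshold, and 2.07 and 2.79 within sides A and B. Its adjusted p ran from 0.00802 to 0.908 over the alternatives and was under the threshold in 4 of them. In the same list Nceh1, a cholesteryl ester hydrolase, differed by -0.59 (SE 0.40; adjusted p = 0.803), and the list median was -0.06, with 5 of 10 genes on either side of 0 (0.23 without control replicate 2). Whether the Ch25h and Sqle differences are connected was not tested.

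Genes of sterol uptake and transport were evenly divided, 5 of 9 with a lower mean and a median of -0.10 (0.24 without control replicate 2). Npc2, which moves cholesterol out of lysosomes, differed by 0.42 (SE 0.23; limma adjusted p = 0.763) and the lipoprotein receptor Lrp1 by -0.42 (SE 0.35; adjusted p = 0.829). On a dimmer Lrp1 probe set the groups were apart on the low side, at 83.2, 118 and 166 against 313 and 235. The difference there was -1.21 (unadjusted p = 0.0178, adjusted p = 0.484, limma). Branches off the mevalonate route, which lead to dolichol, ubiquinone and prenylated proteins, had 3 of 10 genes with a lower mean and a median of 0.12. Dhdds, of dolichol synthesis, differed by 0.45 (SE 0.32; adjusted p = 0.806) and Fntb, a farnesyltransferase subunit, by -0.32 (SE 0.37; adjusted p = 0.856). A dimmer Dhdds probe set was apart on the high side at 0.78 (unadjusted p = 0.0347, adjusted p = 0.578, limma), and another differed by -0.07.

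Fatty acid synthesis genes, many of them targets of the related factor SREBP1, had 5 of 12 with a lower mean and a median of 0.04. Elovl6, which lengthens saturated fatty acids, had 19.7, 35.04 and 19.5 in tumoricidal arrays and 50.4 and 58.0 in controls. All tumoricidal arrays were below both controls, at a difference of -1.18 (SE 0.35; limma unadjusted p = 0.0152, adjusted p = 0.458), with -0.94 and -1.57 within sides A and B. Its other 2 probe sets were apart in the same direction. Fads1, a desaturase, differed by 0.53 (SE 0.34; adjusted p = 0.798).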

How the data were processed

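Total RNA of sorted CD11b+ cells was extracted with Trizol and 6 µg were labelled by the Affymetrix protocol, per the labels' protocols. The authors deposited linear signal intensity per probe set. Software, probe summary and scaling: not given in the sources used here. The trimmed mean (2% off either end) was the same on all 5 arrays, so the deposited intensities had been scaled, while medians ran from 15.4 to 22.6.

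Each array was brought to the median of the array medians, the 64 control sets were taken out, the floor was applied and log2 was taken. A further 3984 that never rose above the floor were dropped and 41053 probe sets were fitted with limma 3.58.1 (lmFit, eBayes without trend, no covariate, two-sided) in R 4.3.3, Benjamini-Hochberg adjusted over all of them. Figures used matplotlib 3.10.9. Arrays give no counts, so their number limits the precision. The fit was tested on simulated data.

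Symbols came from the platform annotation and were checked by Entrez identifier against RefSeq genes of GRCm38.p6. A gene takes its single-symbol probe set with the highest mean. Members and lists were chosen with earlier results of these data known. Outside the members, up to 4 genes a list with an unadjusted p under 0.05 were named, or, where fewer than 2 passed, the 2 that differed most in size, plus Srebf2, Ch25h and defining cell markers. Alternatives changed the scaling, floor, filter, probe set choice, trend, block and arrays.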

Additional observations from a re-analysis of the deposited data

How the results depend on the processing

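The 9 members had 0 calls by limma at an adjusted p under 0.05 in either direction under every alternative run. Of 153 member values 146 kept their direction, but many of them could not turn. The trend, the lower floor, the filter on the median and keeping multi-symbol probe sets left the members' differences as they were. The replicate block gave the same member differences as leaving out tumoricidal replicate 3. Their median log2 difference of -0.25 was -0.48 with the deposited scaling, -0.36 with quantile normalization, -0.14 with the replicate block and -0.00390 within side A of the spike-in split, and it ran from -0.29 to -0.0723 with 1 array left out, nearest to 0 without control replicate 2. The median of all genes moved from 0.13 to -0.0677 with the deposited scaling. Turned signs were those of Dhcr7 (-0.00390), Fdps (0.12), Hmgcs1 (0.0156) and Insig1 (0.13) within side A, of Hmgcs1 and Insig1 without control replicate 2 (ranges with 1 array left out -0.13 to 0.0111 and -0.21 to 0.0889), and of Lss with its probe sets averaged (-0.45). Members with a higher mean numbered 1 with probe sets averaged and 2 to 4 with 1 array left out, the 4 without control replicate 2. Members lower at an unadjusted p under 0.05 numbered 2 with the deposited scaling, quantile normalization, no floor or probe sets averaged, and 0 with the replicate block. Without a floor, 1 was higher by that rule. Of the other sterol lists 1 gene, Ch25h, was called higher with a variance trend, probe sets averaged, no floor, or only probe sets above the median. Over the whole array the 14 higher and 7 lower probe sets became 58 higher with the trend, 59 and 12 without a floor, 168 and 25 above the median, and 0 and 0 with the lower floor, the replicate block, the spike-in split as a block, or any 1 array left out (0 to 0). The causes were not tested. Same-numbered arrays are not known to be paired. Deviations from the group means correlated at 0.02 for replicate 1 and -0.24 for replicate 2. Tumoricidal replicate 2 correlated at 0.24 with control replicate 1, and tumoricidal replicate 3 at 0.26 with control replicate 2. The deviations of the 2 controls are equal and opposite, so these values cannot settle whether arrays were paired. The replicate block left Sqle at -0.96 (limma adjusted p = 0.908). Signals near the floor limit the Lss, Fdps, Fdft1 and Cyp51 probe sets named as such.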
